A study of Mus musculus with 9 samples.

Results

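The genes described here are 10 members of a tandem array of zinc finger genes at the distal end of mouse chromosome 2, Zfp931, Zfp965, Zfp966, Zfp967, Zfp968, Zfp969, Zfp970, Zfp971, Zfp972 and Zfp973, of 35071 genes in the files. They were named for their place in this array, except Zfp970, which was chosen by its measured level, higher in both knockout groups than in WT. Its differences from WT are therefore given as a description with no test. Transcript levels were measured by RNA sequencing of subcutaneous adipose tissue from C57BL/6 mice aged 24 weeks. The labels name 3 groups of 3 libraries, Homo KO, Hete KO and WT, and the series describes the knockout as one of AGO1, an Argonaute protein that carries small RNAs, in endothelial cells. The driver of the deletion, its alleles, the breeding of the WT animals and sex are not stated by the labels. Nothing in the labels says that the libraries of a group came from separate animals, so the p values measure the spread between these libraries, which may be technical. The whole tissue was sequenced, in which fewer cells of a type and less RNA per cell cannot be told apart.

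KRAB zinc finger proteins are DNA-binding repressors of vertebrates. The zinc fingers, repeated at the C-terminal end, read a DNA sequence, often within a transposable element. The KRAB box near the N-terminal end recruits Trim28, which brings Setdb1 and heterochromatin proteins to the site. The genes arose largely by tandem duplication, so neighbours in an array tend to be close copies, and this bears on how sequencing reads can be assigned to them.

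In GENCODE M21 (build GRCm38, mm10) the 10 genes spanned chr2:175372436-178078476, a stretch of 2.71 Mb that holds 71 annotated genes, the 10 members and 61 other models. In order along the chromosome they were Zfp968, Zfp965, Zfp969, Zfp966, Zfp967, Zfp973, Zfp970, Zfp972, Zfp971 and Zfp931. Zfp970 (ENSMUSG00000078866.10) lay at chr2:177464733-177478129 on the plus strand, and Zfp965 (ENSMUSG00000078896.11) at chr2:175469985-175482171, also on the plus strand. All 10 are annotated as protein coding and have 28 transcripts in the files.

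Each of the 10 genes had a coding exon of 127 bases that encodes the core of the KRAB box, and this exon shows how close the copies are. It is printed for every distinct form, 5′ to 3′ on the coding strand, with capitals for bases that differ from Zfp970. Zfp966, Zfp967, Zfp968 and Zfp969 had the form of Zfp970 without a difference, and Zfp965 and Zfp973 shared a form with 1 difference.
Zfp970 (chr2:177473286-177473412, plus strand): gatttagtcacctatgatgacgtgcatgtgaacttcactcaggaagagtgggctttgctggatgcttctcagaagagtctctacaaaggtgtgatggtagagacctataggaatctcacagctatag
Zfp965 (chr2:175477999-175478125, plus strand): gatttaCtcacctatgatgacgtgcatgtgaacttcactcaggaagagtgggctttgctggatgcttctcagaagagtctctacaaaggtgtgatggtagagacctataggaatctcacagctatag
Zfp971 (chr2:178031255-178031381, plus strand): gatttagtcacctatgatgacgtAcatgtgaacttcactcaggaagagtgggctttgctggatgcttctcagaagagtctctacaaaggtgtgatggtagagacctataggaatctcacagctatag
Zfp931 (chr2:178069823-178069949, minus strand): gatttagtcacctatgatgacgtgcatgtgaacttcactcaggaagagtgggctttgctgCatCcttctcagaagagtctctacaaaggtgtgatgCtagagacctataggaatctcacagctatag
Zfp972 (chr2:177921689-177921815, minus strand): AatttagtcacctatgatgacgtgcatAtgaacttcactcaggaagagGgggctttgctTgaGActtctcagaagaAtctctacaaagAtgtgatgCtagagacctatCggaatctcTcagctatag
Zfp971 had 1 difference from Zfp970, Zfp931 had 3, and Zfp972 had 11, which leaves it 91.3% identical.

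Transcript sequence outside this exon was shared as well. Of all stretches of 31 bases (31-mers) in the transcripts of a member, the share found in no other gene among 111362 annotated transcripts was 60.2% for Zfp931, 32.1% for Zfp970, 30.9% for Zfp972 and 30.5% for Zfp971. It was 9.45% for Zfp973, 6.06% for Zfp966, 2.67% for Zfp968 and 2.06% for Zfp965. Zfp967 and Zfp969 had no 31-mer of their own. There were 4 pairs of transcripts with identical sequence, a 1271-base pair of Zfp965 and Zfp973, a 733-base pair of Zfp966 and Zfp968, and pairs of 417 and 1458 bases of Zfp967 and Zfp969. In 3 of these pairs both partners were listed with the same nonzero estimated counts in every library where either had any. The level of a single member is thus the quantifier's estimate of how shared reads divide, and sums over members that share sequence do not depend on that division among them.

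**Figure D1:**
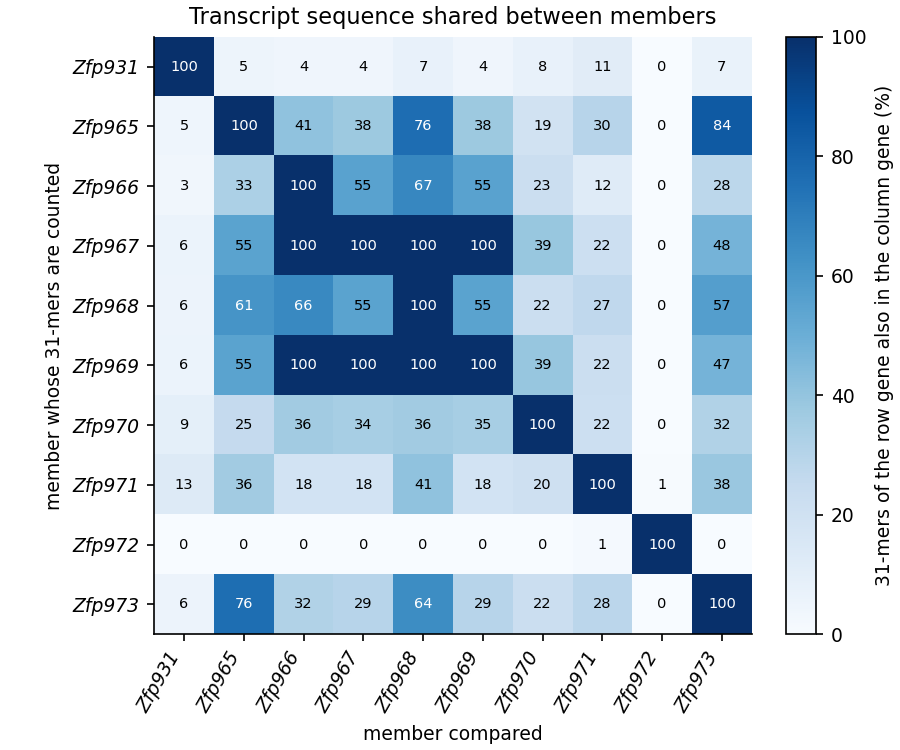
Share of the 31-mers of the member in each row, in percent, that also occur in a transcript of the member in each column. Every 31-mer of Zfp967 also occurs in Zfp966, Zfp968 and Zfp969, while Zfp931 shares at most 11.1% and Zfp972 at most 1.2% of its 31-mers with another member.

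Stretches that occur in no other gene were present in the transcripts that carried most of the counts of Zfp970 and Zfp965. They are printed because reads within them match that gene alone. Capitals mark bases of the last exon where the stretch crosses an exon junction.
Zfp970, transcript of 1569 bases (chr2:177475373-177475453): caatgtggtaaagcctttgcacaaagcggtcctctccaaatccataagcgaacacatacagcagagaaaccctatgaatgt
Zfp970, transcript of 794 bases (chr2:177473650-177473678 joined to chr2:177477640-177477676): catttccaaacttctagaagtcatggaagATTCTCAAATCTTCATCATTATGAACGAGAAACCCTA
Zfp965, transcript of 417 bases (chr2:175478364-175478392 joined to chr2:175481277-175481300): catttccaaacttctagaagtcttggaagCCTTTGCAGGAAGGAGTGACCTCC
The stretch in the longer Zfp970 transcript lies within the part that encodes the zinc fingers.

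Depth was between 20843427 and 28252001 estimated counts per library. The targeted gene, Ago1, was at 62.2, 58.6 and 25.8 TMM-normalized CPM (counts scaled to library size) in Homo KO, at 51.2, 59.7 and 60.1 CPM in Hete KO and at 69.9, 63.8 and 63.4 CPM in WT. By edgeR's quasi-likelihood test neither Homo KO (log2 difference from WT -0.43, SE 0.265, adjusted p = 0.441) nor Hete KO (-0.21, SE 0.264, adjusted p = 0.699) passed, and each WT library lay above each knockout library. All 6 adipocyte markers and all 6 endothelial markers were detected, with 1.23 to 2.35% and 0.0566 to 0.1% of counts. The 18 skeletal muscle markers, all above 0 in each group, held 0.0101 to 0.0332% of counts in Homo KO, 0.0407 to 3.09% in Hete KO and 0.0123 to 1.22% in WT, with over 1% in Hete KO 2, WT 1 and WT 2. The 24 liver markers, all above 0 in each group, held 0.147 to 0.162% in Homo KO, 0.0981 to 0.169% in Hete KO and 0.23 to 0.435% in WT, and 6 cell cycle markers held 0.00677 to 0.0104% in Homo KO, 0.00395 to 0.0079% in Hete KO and 0.0121 to 0.0196% in WT. The liver and cell cycle lists were higher in each WT library than in each knockout library. The 6 macrophage markers, all above 0 in each group, held 0.0418 to 0.0611% in Homo KO, 0.0318 to 0.0467% in Hete KO and 0.0573 to 0.0805% in WT, so Hete KO lay below WT and Homo KO overlapped it. The part of these tissues and cells in the results was not tested, and sums are also given without the 3 libraries with over 1% of counts in the muscle list and without WT 2 and WT 3, the libraries with over 100 CPM of the liver gene Alb. Liver markers were present in all 9 libraries. Length minus effective length, which follows the fragment length, was 266.9 bases in Homo KO 2 and 184.4 to 198.9 bases in the other 8 libraries.

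Per length, Zfp970 was the most abundant member, at 216, 230 and 162 TPM (transcript abundance scaled to length and library) in Homo KO, 172, 189 and 206 TPM in Hete KO and 120, 97.9 and 117 TPM in WT. Zfp965 came next in the knockouts and in WT, with group means of 159 TPM in Homo KO, 151 TPM in Hete KO and 33.1 TPM in WT. In the means over all 9 libraries Zfp966 followed at 24.9 TPM, Zfp971 at 22.7 TPM, Zfp972 at 21.4 TPM, Zfp973 at 18.2 TPM, Zfp931 at 14.8 TPM and Zfp968 at 11.6 TPM. Neighbours in this order from Zfp966 down to Zfp968 overlapped in their ranges over the 9 libraries, while in WT the libraries of Zfp970 lay above those of Zfp965, and those of Zfp965 and Zfp966 overlapped. Zfp967 and Zfp969 were listed at 0 in 7 libraries and at the same trace in the other two, 0.454 TPM in Hete KO 3 and 0.692 TPM in WT 2. These 2 genes did not pass the filter on low counts, so 8 of the 10 members were tested.

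Zfp970 encodes the protein with the most zinc fingers among the members. It was at 119, 121 and 99.2 CPM in Homo KO, 91.1, 116 and 119 CPM in Hete KO and 60.3, 48.7 and 65.8 CPM in WT. The lowest knockout library, Hete KO 1, lay above the highest WT library, WT 3. The means were 113 ± 12, 109 ± 15.3 and 58.3 ± 8.73 CPM (SD, n = 3 each) in Homo KO, Hete KO and WT. The log2 fold change was 0.96 (SE 0.15) in Homo KO against WT and 0.90 (SE 0.15) in Hete KO against WT, the values by which the gene was chosen. Homo KO stood 0.06 above Hete KO in log2 (SE 0.148, adjusted p = 0.991 by edgeR), a contrast that played no part in the choice, and the libraries of the 2 groups overlapped.

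**Figure D2:**
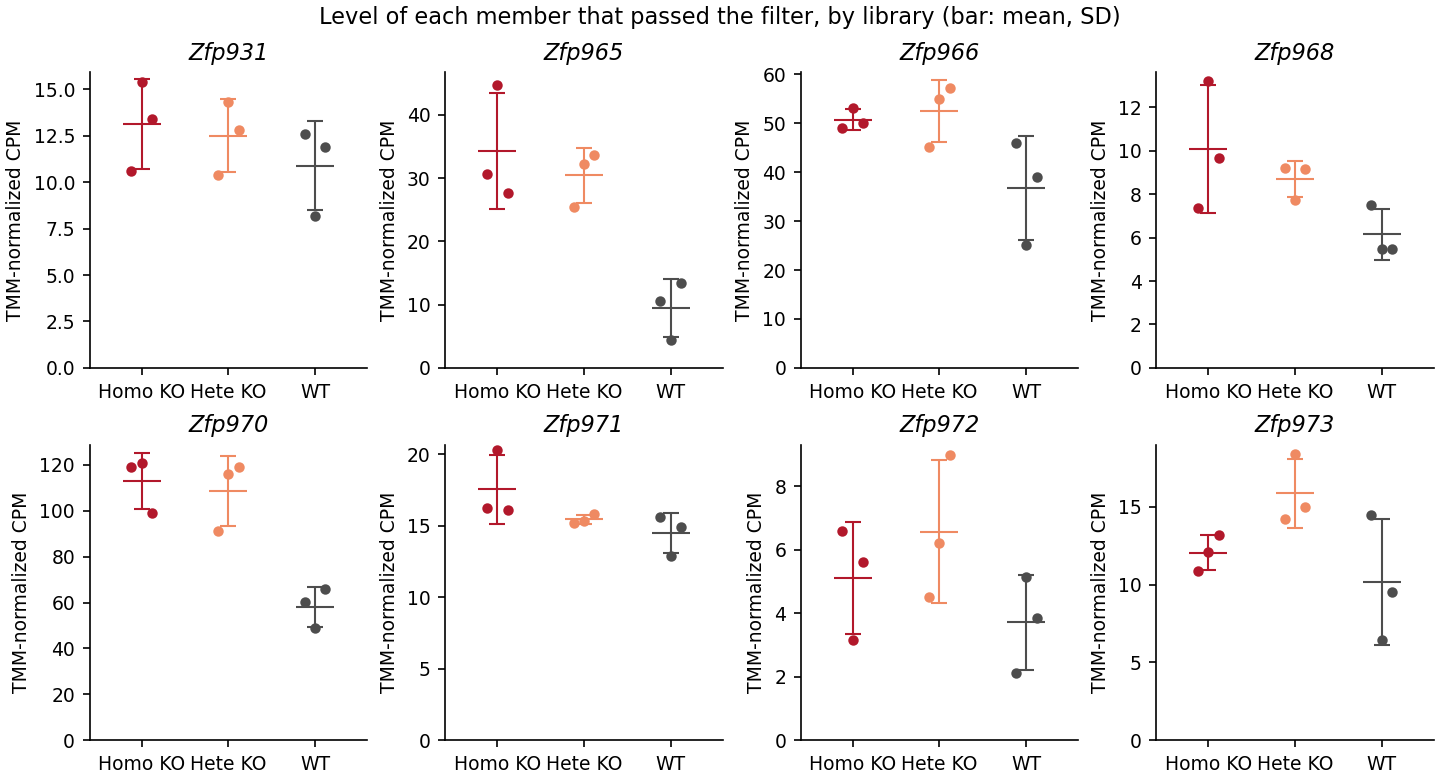
TMM-normalized CPM of the 8 members that passed the filter, 1 point per library, with bars for the mean and SD of 3 libraries, in Homo KO, Hete KO and WT from left to right. Zfp970 and Zfp965 have every knockout library above every WT library, while the groups of Zfp931 and Zfp972 overlap.

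Zfp970 has 2 annotated transcripts. The longer, of 1569 bases, encodes 522 codons with 14 zinc finger patterns, and the shorter, of 794 bases, encodes 76 codons that hold the KRAB exon and no zinc finger. The longer was at 54.7, 45.2 and 43.7 CPM in Homo KO, 32.6, 55.1 and 57.3 CPM in Hete KO and 21.2, 10.3 and 20.2 CPM in WT. All 6 knockout libraries thus lay above the 3 WT libraries, with a ratio of means of 2.78 in Homo KO against WT and 2.8 in Hete KO against WT. The shorter was at 63.9, 76.1 and 55.5 CPM in Homo KO, 58.5, 60.6 and 62 CPM in Hete KO and 39.1, 38.4 and 45.6 CPM in WT, ratios of 1.59 and 1.47 against WT without overlap. The longer transcript held 46.1, 37.2 and 44.1% of the counts of the gene in Homo KO, 35.8, 47.6 and 48% in Hete KO and 35.2, 21.1 and 30.7% in WT. Each knockout library was above each WT library in this share, the closest being Hete KO 1 and WT 1. Of the 31-mers of the longer transcript, 28.9% occur in no other gene. Each of the gene models Gm14288 and Gm14440 holds 53.4% of them. The level and share of this transcript thus depend on how shared reads were divided. Like the gene, the transcripts carry the contrast that chose it, so no test was made of them.

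Zfp965 had the largest fold change of the members, and it did not pass the test in either comparison with WT. It was at 30.6, 44.7 and 27.6 CPM in Homo KO, 25.5, 32.2 and 33.6 CPM in Hete KO and 10.5, 4.45 and 13.4 CPM in WT. No knockout library overlapped a WT library. By edgeR it stood 1.86 above WT in log2 in Homo KO (SE 0.349, adjusted p = 0.154) and 1.68 above WT in Hete KO (SE 0.347, adjusted p = 0.0606). DESeq2 called it in both, with adjusted p = 4.41e-06 and 2.14e-05, and over 20 alternatives the adjusted p ran from 4.41e-06 to 0.542 in Homo KO against WT and from 2.14e-05 to 0.351 in Hete KO against WT. On the log2(TPM + 0.5) scale with limma the differences were 2.45 in Homo KO and 2.37 in Hete KO against WT and did not pass. It shared 83.7% of its 31-mers with Zfp973 and 76.2% with Zfp968.

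In the knockouts most counts of Zfp965 went to its transcript of 417 bases, which lacks the KRAB exon and holds no zinc finger pattern. It took 68.2, 70.6 and 78.9% of the gene's counts in Homo KO, 69.4, 74.2 and 83.5% in Hete KO and 58.5, 26.7 and 40.7% in WT. This transcript was at 20.9, 31.6 and 21.8 CPM in Homo KO, 17.7, 23.9 and 28 CPM in Hete KO and 6.14, 1.19 and 5.45 CPM in WT, without overlap. The ratio of means was 5.81 in Homo KO against WT and 5.45 in Hete KO against WT. Of the sequence stretches of this transcript, compared as above, only 5.94% occur in no other gene. Each of Gm14421, Zfp966 and Zfp967 holds 76% of these stretches. The level, share and ratios of this transcript thus depend on how shared reads were divided. The Zfp965 transcript of 957 bases, which encodes 6 zinc finger patterns, was lower. It was at 5.06, 7.05 and 1.6 CPM in Homo KO and 1.75, 2.35 and 0.671 CPM in Hete KO. In WT it was at 0, 0.745 and 3.45 CPM. The groups overlapped for the finger-bearing form.

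**Figure D3:**
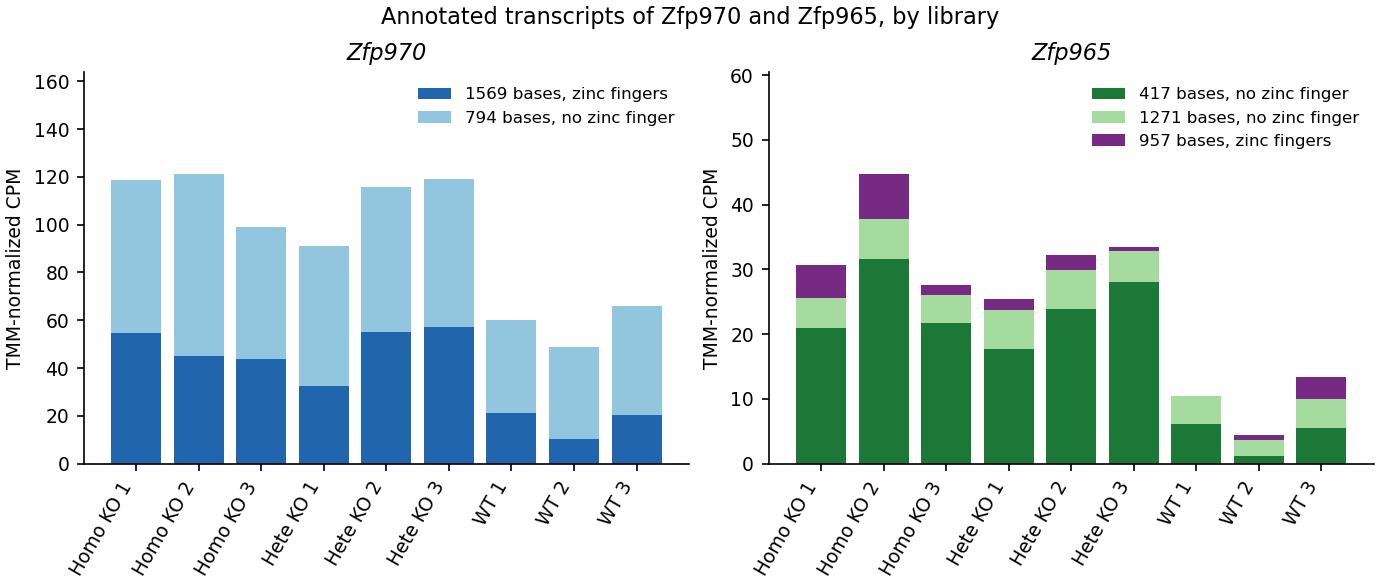
TMM-normalized CPM of the annotated transcripts of Zfp970 (left) and Zfp965 (right), stacked, for each of the 9 libraries with Homo KO at the left and WT at the right. The 1569-base transcript of Zfp970 reaches 32.6 to 57.3 CPM in the knockout libraries and 10.3 to 21.2 CPM in WT, and the 417-base transcript makes up most of Zfp965 in the knockouts. The fourth Zfp965 transcript, of 297 bases, is at 0 throughout.

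Zfp966 has a transcript of 2939 bases with 11 zinc finger patterns, which held nearly all of its counts. It was at 49, 53.1 and 50 CPM in Homo KO, 45.2, 54.9 and 57.1 CPM in Hete KO and 46, 25.1 and 39.1 CPM in WT. Homo KO lay above WT throughout, and Hete KO overlapped WT. By edgeR the Homo KO difference from WT was 0.47 in log2 (SE 0.194, adjusted p = 0.279) and the Hete KO difference 0.51 (SE 0.194, adjusted p = 0.166), and neither passed.

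Zfp968 was measured mainly by a transcript of 1272 bases without a zinc finger pattern, and its finger-bearing transcript was at 0 in all libraries. The gene was at 7.37, 13.2 and 9.67 CPM in Homo KO, 9.21, 7.74 and 9.14 CPM in Hete KO and 7.52, 5.47 and 5.46 CPM in WT. Hete KO lay above WT, and Homo KO overlapped it. Neither the Homo KO difference from WT, 0.71 in log2 (SE 0.236, adjusted p = 0.221 by edgeR), nor the Hete KO difference, 0.50 (SE 0.236, adjusted p = 0.253), passed.

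Zfp971, whose longer transcript encodes 12 zinc finger patterns, was at 16.2, 20.3 and 16.1 CPM in Homo KO, 15.2, 15.3 and 15.8 CPM in Hete KO and 15.6, 12.9 and 14.9 CPM in WT. Homo KO was just above WT in all libraries and Hete KO overlapped WT. The log2 fold changes were 0.28 (SE 0.142, adjusted p = 0.36 by edgeR) and 0.10 (SE 0.142, adjusted p = 0.746) against WT. Zfp931, with the most sequence of its own, had the smallest fold change in Homo KO after Zfp973, 0.27 (SE 0.214, adjusted p = 0.544), while Hete KO stood 0.20 above WT in log2 (SE 0.214, adjusted p = 0.631). Its levels of 10.6, 15.4 and 13.4 CPM in Homo KO and 10.4, 14.3 and 12.8 CPM in Hete KO overlapped the 12.6, 8.17 and 11.9 CPM in WT.

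Zfp972, the most diverged in the KRAB exon and without an annotated transcript that holds zinc fingers, was at 6.59, 3.16 and 5.6 CPM in Homo KO, 4.5, 6.21 and 8.97 CPM in Hete KO and 2.13, 5.14 and 3.85 CPM in WT. Zfp973, the near copy of Zfp965, was at 10.9, 12.1 and 13.2 CPM in Homo KO, 14.2, 18.4 and 15 CPM in Hete KO and 14.5, 6.47 and 9.5 CPM in WT. Both overlapped WT in both knockouts. The log2 fold changes of Zfp972 were 0.46 (SE 0.393, adjusted p = 0.578 by edgeR) and 0.82 (SE 0.392, adjusted p = 0.259) in Homo KO and Hete KO against WT. Without WT 2 and WT 3, the libraries with over 100 CPM of Alb, they were 1.26 (adjusted p = 0.574) and 1.62 (adjusted p = 0.414), and over 20 alternatives the adjusted p ran from 0.494 to 0.821 and from 0.165 to 0.587. Those of Zfp973 were 0.25 (SE 0.26, adjusted p = 0.655) and 0.64 (SE 0.26, adjusted p = 0.19).

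Counted together, none of the 7 tested members other than Zfp970 passed an adjusted p of 0.05 by edgeR in Homo KO against WT, where 0% of 17968 tested genes were called higher. None passed in Hete KO against WT either, where 0.15% of all tested genes were called higher and 0.417% in either direction. At an unadjusted p under 0.05, 3 of 7 were higher and none lower in Homo KO against WT, beside 7.75% and 8.68% of all tested genes. In Hete KO against WT 3 of 7 were higher and none lower, beside 9.71% and 12.1%. DESeq2 called 1 of 7 higher in each, Zfp965, and none lower. Over all genes it called 1.43% higher and 1.91% lower in Homo KO against WT, and 3.64% higher and 6.14% lower in Hete KO against WT. The groups did not overlap, with the knockout higher, for 3 of 7 in Homo KO against WT, beside 10.9% of all tested genes, and for 2 of 7 in Hete KO against WT, beside 12.6%. All 7 fold changes were above 0 in each comparison, beside 49.3% and 51.4% of all tested genes, with medians of 0.46 and 0.51, against -0.01 and 0.02 over all tested genes. These members share reads with Zfp970 and with one another and the 2 comparisons share the WT libraries, so the 7 are not separate observations. WT 2 was the library with the lowest level for 6 of the 8 tested members.

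**Figure D4:**
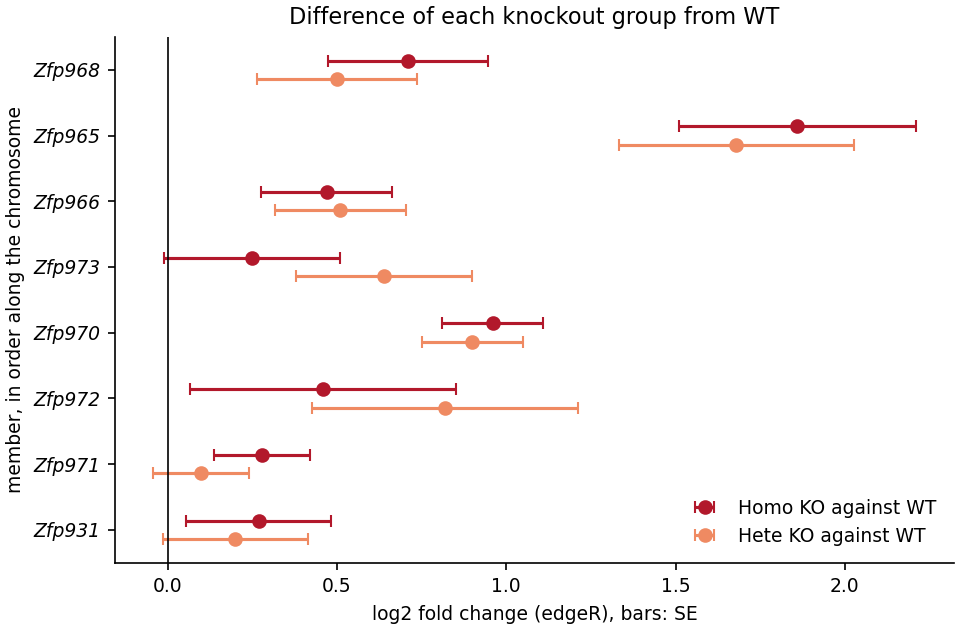
Log2 fold change (edgeR, horizontal axis) of the 8 tested members, in order along the chromosome from top to bottom, in Homo KO against WT and Hete KO against WT, with bars for the SE. All points lie right of 0, Zfp965 farthest at 1.86 and 1.68, and Zfp970, picked for this difference, at 0.96 and 0.90.

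Between the knockouts, Homo KO against Hete KO, none of the 8 tested members was called by edgeR, where 0% of all tested genes were called in either direction. None was under an unadjusted p of 0.05, beside 2.25% of all tested genes higher and 3.19% lower, and DESeq2 called none. The fold changes of 5 of 8 were above 0, beside 50.5% of all tested genes. The log2 fold changes ran from -0.39 (SE 0.26, adjusted p = 0.936) for Zfp973 to 0.21 (SE 0.234, adjusted p = 0.967) for Zfp968. Zfp971 lay higher in Homo KO in all libraries, at 16.1 to 20.3 CPM against 15.2 to 15.8 CPM in Hete KO, and Zfp973 lower, at 10.9 to 13.2 CPM against 14.2 to 18.4 CPM. The other 6 overlapped, and over all tested genes 5.72% lay higher and 5.64% lower without overlap.

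Summed over the 10 members, the level was 250, 283 and 235 CPM in Homo KO, 215, 265 and 272 CPM in Hete KO and 169, 117 and 164 CPM in WT. All knockout libraries lay above all WT libraries. The means were 256 ± 24.8, 251 ± 30.7 and 150 ± 28.9 CPM (SD, n = 3 each) in Homo KO, Hete KO and WT, a ratio of 1.71 in Homo KO against WT and 1.67 in Hete KO against WT. Without Zfp970 the other 9 summed to 131, 162 and 136 CPM in Homo KO, 124, 149 and 152 CPM in Hete KO and 109, 67.9 and 98 CPM in WT, still without overlap, and the ratios were 1.56 and 1.55. No p is given for these sums, since the members were chosen with results of these libraries known.

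The log2 ratio of the 10-member sum was 0.77 in Homo KO against WT and 0.74 in Hete KO against WT. It was 0.64 and 0.57 without the 3 libraries with muscle transcripts, with WT 3 left to stand for WT, and 0.60 and 0.57 without WT 2 and WT 3, the libraries with over 100 CPM of Alb, which leaves WT 1. In TPM it was 1.05 and 0.98, in which the 417-base transcript of Zfp965 weighs more. Without Homo KO 2, the library with the longer fragments, it was 0.69 in Homo KO against WT.

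Sums of Zfp965 with genes that share its sequence gave smaller ratios than Zfp965 alone. Zfp965 and Zfp973 together were at 41.6, 56.8 and 40.8 CPM in Homo KO, 39.6, 50.6 and 48.5 CPM in Hete KO and 25, 10.9 and 22.9 CPM in WT, ratios of 2.37 and 2.36 against WT, where Zfp965 alone gave 3.63 and 3.22. Zfp965 with the 4 genes that hold at least 50% of its 31-mers (Zfp968, Zfp973, Gm14288 and Gm14440) gave 1.82 and 1.77, with all knockout libraries at 116 to 153 CPM and WT at 46.2 to 91.7 CPM. This sum leaves out Gm14421, Zfp966 and Zfp967, which each hold 76% of the 31-mers of the 417-base Zfp965 transcript. Zfp966 with Zfp967, Zfp968 and Zfp969 gave 1.42 and 1.42, at 54.4 to 66.3 CPM in the knockouts and 30.8 to 53.5 CPM in WT. For Zfp966 alone the edgeR fold changes were 1.38 in Homo KO and 1.43 in Hete KO against WT.

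The gene models Gm14288 and Gm14440, named here after their values were seen, are near copies. Of the 31-mers of Gm14440, 100% occur in Gm14288, and 97.5% of those of Gm14288 occur in Gm14440, which lies outside the stretch between the members. It was at 71.2, 83.2 and 57.8 CPM in Homo KO, 66.8, 66.8 and 53.8 CPM in Hete KO and 0, 29.3 and 18.3 CPM in WT. Gm14288 was at 0, 0 and 17.9 CPM in Homo KO, 0, 8.6 and 28.8 CPM in Hete KO and 59.2, 0.561 and 35.3 CPM in WT. In WT 1 all the counts of the pair were given to Gm14288, and in Homo KO 1, Homo KO 2 and Hete KO 1 all were given to Gm14440. The pair together was at 71.2, 83.2 and 75.7 CPM in Homo KO, 66.8, 75.4 and 82.6 CPM in Hete KO and 59.2, 29.8 and 53.7 CPM in WT, ratios of 1.61 and 1.57 against WT without overlap. Zfp970 summed with this pair gave ratios of 1.79 and 1.74 against WT, where Zfp970 alone gave 1.94 and 1.87.

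**Figure D5:**
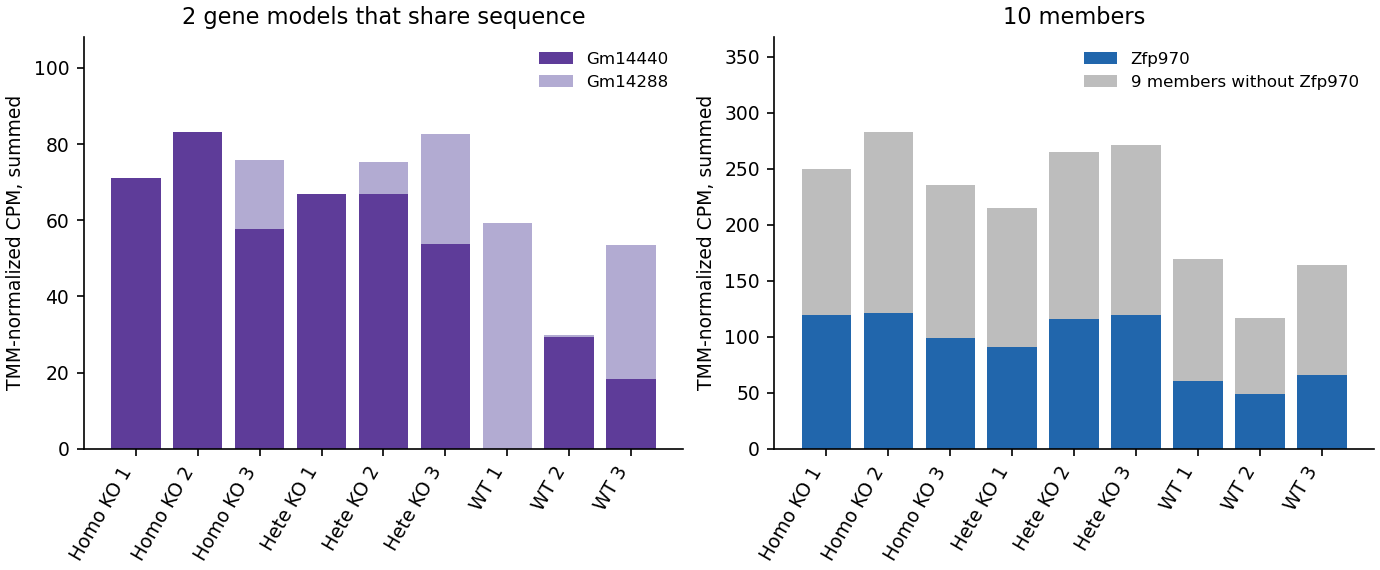
TMM-normalized CPM summed by library, with Homo KO at the left and WT at the right. Left, Gm14440 and Gm14288, whose split changes between libraries of 1 group while the sum is 66.8 to 83.2 CPM in the knockouts and 29.8 to 59.2 CPM in WT. Right, Zfp970 and the other 9 members, whose sum is 215 to 283 CPM in the knockouts and 117 to 169 CPM in WT.

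By TPM, in which the split between transcripts is the quantifier's estimate, transcripts that encode zinc fingers were the smaller part of the members' total. The 9 such transcripts held 19.2 to 27.6% of the TPM of the members across the 9 libraries and 39.6 to 51.7% of their counts. By group the share of TPM was 23.8, 19.2 and 22.5% in Homo KO, 20.4, 23.2 and 21.7% in Hete KO and 27.6, 19.3 and 25.2% in WT, so the groups overlapped.

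The other gene models of the array were read from the same fit. Of 61 models, 59 were in the files and 34 were tested, and edgeR called none in Homo KO against WT or in Hete KO against WT. DESeq2 called 1 of 36 in Homo KO and 2 of 32 in Hete KO against WT, beside all-gene shares of 1.43% higher and 1.91% lower, and 3.64% higher and 6.14% lower. At an unadjusted p under 0.05, 6 of 34 were higher and none lower in each comparison, beside the 7.75% and 9.71% of all tested genes, and the median log2 fold changes were 0.55 and 0.49. Without overlap, 8 of 34 lay higher and none lower in Homo KO against WT, beside 10.9% and 11.2% of all tested genes. In Hete KO against WT 11 of 34 lay higher and 1 lower, beside 12.6% and 12.1%. The 5 array models with the highest mean TPM were Gm14325, Gm14403, Gm14410, Gm14421 and Gm14296. Gm14421 was at 37.3, 43.4 and 37.9 CPM in Homo KO, 39.6, 44.6 and 45.8 CPM in Hete KO and 27.9, 17.6 and 27.6 CPM in WT, without overlap, and did not pass (log2 fold change 0.70, adjusted p = 0.165, and 0.83, adjusted p = 0.0606, by edgeR). The log2 fold changes of Gm14325, Gm14403 and Gm14296 lay between 0.50 and 0.73 in both comparisons, and Gm14410 was at -0.12 in Homo KO and 0.34 in Hete KO against WT. Summed over all genes of the array, the 10 members included, the means were 566 ± 53.4 CPM in Homo KO and 569 ± 58.7 CPM in Hete KO. They stood beside 397 ± 116 CPM in WT (SD, n = 3 each), ratios of 1.43 and 1.43. The members, Zfp970 among them, made up 256, 251 and 150 CPM of these means. The ratios are therefore not those of the other models alone. The array sum also counts Gm14288 but not its near copy Gm14440, which lies outside the array stretch. Group means of Gm14288 were 5.96, 12.5 and 31.7 CPM in Homo KO, Hete KO and WT. Those of Gm14440 were 70.8, 62.5 and 15.9 CPM. The array sum and its ratios thus depend on how reads were divided within this pair.

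Zinc finger genes elsewhere were set beside the members. Of 363 other genes with a Zfp symbol, 345 were tested, and 74.8% had a log2 fold change above 0 in Homo KO against WT and 76.5% in Hete KO against WT, beside the 49.3% and 51.4% of all tested genes. At an unadjusted p under 0.05, 73 were higher and 6 lower in Homo KO against WT, beside 7.75% and 8.68% of all tested genes. In Hete KO against WT 93 were higher and 6 lower, beside 9.71% and 12.1%. The groups did not overlap, with the knockout higher, for 27.2% of these Zfp genes in Homo KO and 29.9% in Hete KO against WT. Over all tested genes the shares were 10.9% and 12.6%. With the knockout lower they were 2.61% and 1.74%, beside 11.2% and 12.1% of all tested genes. The medians of these Zfp genes were 0.21 and 0.24. edgeR called none in Homo KO and 1, Zfp809, in Hete KO against WT, while DESeq2 called 8 of 348 in Homo KO and 25 of 337 in Hete KO against WT. The share DESeq2 called over all genes was 1.43% higher and 1.91% lower in Homo KO, and 3.64% higher and 6.14% lower in Hete KO against WT. Whether the members differ from these other Zfp genes was not tested.

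Of 23 genes for corepressors and heterochromatin proteins that act with KRAB zinc finger proteins, and for KRAB zinc finger proteins of known targets, all were tested. edgeR called none in Homo KO against WT, where 3 were higher and 2 lower at an unadjusted p under 0.05, beside 7.75% and 8.68% of all tested genes. DESeq2 called 1, beside 1.43% of all genes called higher and 1.91% lower. In Hete KO against WT edgeR called 1 higher and none lower, beside 0.15% and 0.267% of all tested genes. At an unadjusted p under 0.05, 5 were higher and 2 lower there, beside 9.71% and 12.1%. DESeq2 called 5 there, beside 3.64% of all genes called higher and 6.14% lower. The called gene was Zfp809, which silences retroviruses that use the proline primer binding site. It is also among the other Zfp genes above, where it was the gene called by edgeR. It was at 41.9, 35.5 and 41.4 CPM in Homo KO, 41.4, 51.5 and 49.7 CPM in Hete KO and 25.4, 18.3 and 23 CPM in WT, and no knockout library overlapped WT. By edgeR it stood 0.83 above WT in log2 in Homo KO (SE 0.148, adjusted p = 0.149) and 1.09 above WT in Hete KO (SE 0.148, adjusted p = 0.0325). The list had no call in 7 of the 9 fits with 1 library left out, those without WT 2, WT 3, Hete KO 2, Hete KO 3 or any Homo KO library.

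Zfp445, which helps to keep parental imprints, was at 134, 136 and 135 CPM in Homo KO, 137, 153 and 150 CPM in Hete KO and 106, 101 and 115 CPM in WT, without overlap between the knockouts and WT. It did not pass (log2 fold change 0.33, adjusted p = 0.2, and 0.45, adjusted p = 0.0619, by edgeR). The genes of the list lower at an unadjusted p under 0.05 were Chd3 and Uhrf1 in both comparisons with WT. Chd3 differed by -0.39 in log2 in Homo KO (adjusted p = 0.289 by edgeR) and -0.66 in Hete KO (adjusted p = 0.0804). Uhrf1 differed by -0.98 (adjusted p = 0.218) and -1.01 (adjusted p = 0.121), with each knockout library below each WT library. Trim28, the corepressor that binds the KRAB box, differed by -0.12 (adjusted p = 0.666) and -0.19 (adjusted p = 0.435) in log2 in Homo KO and Hete KO against WT. Setdb1, the histone methyltransferase it brings, differed by 0.03 (adjusted p = 0.908) and 0.06 (adjusted p = 0.796). The median of the list was 0.05 and 0.09. Between Homo KO and Hete KO edgeR called none of the 23, none was under an unadjusted p of 0.05 and DESeq2 called none. The smallest p there was that of Zfp568, which silences a placental transcript of Igf2, which stood 0.24 higher in log2 in Homo KO (SE 0.12, adjusted p = 0.905).

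Genes whose pattern was most like that of Zfp970 were sought among 14230 tested genes with a mean of at least 1 CPM, by the root-mean-square difference of log2 CPM over the 9 libraries after each gene was centred on its own mean. The closest were Zkscan7, a zinc finger gene with SCAN and KRAB domains, at 0.113, Enpp6, a choline-specific phosphodiesterase, at 0.142, Agbl3, a carboxypeptidase that removes glutamate from protein tails, at 0.15, Fmo1, a flavin monooxygenase, at 0.156, and Nrg4, a ligand secreted by brown fat, at 0.168. The median over all candidates was 0.525. They lie on chromosomes 9, 8, 6, 1 and 9, not in the array. Zkscan7 was at 14.7, 16.3 and 13.7 CPM in Homo KO, 12.6, 17.1 and 19 CPM in Hete KO and 8.69, 5.89 and 8.81 CPM in WT. Nrg4 was at 146, 171 and 162 CPM in Homo KO, 132, 209 and 166 CPM in Hete KO and 74.8, 75.4 and 101 CPM in WT. Being chosen for this likeness, they get no test. Among the members Zfp966 was closest to Zfp970 at 0.246, with 168 genes closer, and Zfp965 was farthest at 0.549. In this measure a larger change in the same direction also counts as a difference. Zfp965 lay above WT without overlap in both knockouts, as Zfp970 did. Its log2 fold changes were 1.86 and 1.68, those of Zfp970 0.96 and 0.90.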

How the data were processed

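RNA was sequenced from 9 libraries of subcutaneous fat, 3 each of Homo KO, Hete KO and WT. Per the file headers, the deposited files give for each of 113193 transcripts an estimated count (expected count, fractional and not normalized), a TPM value and lengths. The submitters' processing notes name mm10 as the genome build. The quantifier is not given in the sources used here. Of the transcripts, 111362 (98.38%) were matched by identifier to GENCODE M21, and the 1831 others, with 0.581 to 1.06% of counts, were left out.

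Summing within 35071 genes and rounding gave whole-number gene counts. edgeR 4.0.16 (R 4.3.3) filtered low genes (filterByExpr), normalized by TMM and fitted the 3 group means over all 9 libraries, which leaves 6 residual degrees of freedom. The quasi-likelihood F-test was two-sided, with Benjamini-Hochberg adjustment over 17968 tested genes and a threshold of 0.05. Fold changes used a prior count of 0.125 and log2 levels a prior of 2. Alternatives used DESeq2 1.42.0 and limma 3.58.1. The fit was tested on simulated data. C2H2 zinc finger patterns were counted in the translated coding sequence, and 31-mers were compared over all matched transcripts (Python 3.11.15, pandas 2.3.3, Biopython 1.88).

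The members and lists were chosen with earlier results of these data known. Named genes are the members, Ago1, genes among the 2 with the smallest p per comparison on the corepressor list, the 5 array models with the highest mean TPM and the 5 genes most like Zfp970. The corepressor list also holds KRAB zinc finger genes, which the list of other Zfp genes holds as well. Trim28 and Setdb1 were added as background. Chd3 and Uhrf1 were added as the genes of that list lower than WT at an unadjusted p under 0.05. Gm14288 and Gm14440 were added after their values were seen.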

Additional observations from a re-analysis of the deposited data

How the results depend on the processing

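Counts of calls among the members moved from 0 to 1 (Zfp965) with DESeq2 in both comparisons with WT, and in Hete KO against WT also with no filter and without Hete KO 1. Zfp965 then had adjusted p of 4.41e-06 (log2 fold change 1.86) in Homo KO and 2.14e-05 (1.68), 0.0392 (1.68) and 0.0366 (1.82) in Hete KO against WT. In Homo KO against WT, DESeq2 gave 1 call on the corepressor list, 1 among other array models and 8 among other Zfp genes, where edgeR gave 0 for each. Leaving out 1 library gave 0 to 1 on the corepressor list and 0 to 2 among other Zfp genes. In Hete KO against WT, DESeq2 gave 5 calls on the corepressor list (edgeR 1), 2 among other array models (edgeR 0, and 1 with no filter) and 25 among other Zfp genes (edgeR 1). Leaving out 1 library gave 0 to 3 on the corepressor list, 0 to 1 among other array models and 0 to 10 among other Zfp genes. The corepressor list and the other Zfp genes both had 0 with limma on log2(TPM + 0.5) and log2(TPM + 0.1), protein-coding transcripts, 2 groups only, without the muscle-transcript libraries and without libraries with over 100 CPM of Alb. In the sum of the members, Homo KO against WT moved from 0.77 to 1.05 in TPM and 0.51 over every gene of the array. Homo KO against Hete KO, 0.03, turned to -0.01 over every gene of the array and ran from -0.07 to 0.09 with 1 library left out. The array sum counts Gm14288 without its near copy Gm14440, so its values depend on how reads were divided within that pair. Signs of uncalled members turned for Zfp973 in Homo KO against WT without the Alb libraries (-0.26), and in Hete KO against WT for Zfp931 with protein-coding transcripts (-0.15), without the muscle libraries (-0.02) and without the Alb libraries (-0.01), and for Zfp971 without the Alb libraries (-0.01). In Homo KO against Hete KO, leaving out 1 library gave -0.06 to 0.20 for Zfp931, -0.06 to 0.30 for Zfp965, -0.16 to 0.01 for Zfp966, -0.03 to 0.39 for Zfp968 and -0.07 to 0.13 for Zfp970, and Zfp966 was at 0.06 with limma at both pseudocounts. The cause was not tested.

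With the replicate number as a block, the members had 0 calls in each comparison and no call was lost. The correlation of deviations between same-numbered libraries was 0.05, 0.06 and 0.11 in Homo KO and WT, 0, 0.22 and 0.46 in Hete KO and WT, and -0.07, -0.02 and 0 in Homo KO and Hete KO. It was not over 0.1 in every pair of any comparison, so the numbers were not taken to pair the samples. The limit on the liver list was not run, because 8 of 9 libraries were over it, and the Alb limit and the sums over further genes were chosen after seeing the data. Read sharing limits the values of single members, and the effect of depth on them was not tested.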
